A study of Homo sapiens with 9 samples.

Results

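The genes described here encode the replication-dependent histones, chosen by symbol as H1-1 to H1-5 or as H2AC, H2BC, H3C or H4C followed by a number, without pseudogenes. The rule found 66 of the 60664 genes listed. They were 5 H1, 15 H2A, 18 H2B, 13 H3 and 15 H4 genes. A count in at least 1 library was found for 48 of them, 34 passed the filter on low counts and were among the 18264 genes tested, and 18 had a count of 0 in all 9 libraries.

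RNA came from MDA-MB-231, a triple negative breast cancer line, in 3 groups of 3 samples, all collected on day 6. SC cells carried a non-targeting (scramble) hairpin and were kept at 0.77 cP, the viscosity of plain medium, or at 8 cP, reached with methylcellulose. shTRPV4 cells carried a hairpin against TRPV4, a calcium-permeable ion channel, and were kept at 8 cP. All cells were stable lentiviral lines selected with puromycin, TRPV4 was targeted with 1 hairpin, and shTRPV4 cells at 0.77 cP were not analysed here. Libraries were stranded and selected for poly(A) RNA, and the authors deposited a read count for each gene and sample. The labels do not say that replicates were separate cultures, so p-values measure only the spread between these samples.

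Replication-dependent histones package newly made DNA, and their genes are clustered, lack introns in the coding part and are transcribed mainly in S phase with the factors NPAT and CASP8AP2. Their mRNAs are the known exception to polyadenylation: SLBP binds a stem-loop just past the stop codon, the U7 particle with LSM10 and LSM11 guides the cut, and the mature 3′ end carries no poly(A) tail. Poly(A) selection therefore recovers these mRNAs poorly, and reads can come from tailed or carried-over molecules. The whole pool of histone mRNA was not measured, and fewer cells in S phase cannot be told apart from less RNA per cell in these bulk samples.

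The stem-loop was searched for in GRCh38 within 200 bases past each stop codon. A match was 16 bases starting GG and ending CC, with 6 base pairs, G-T pairs included, around a loop starting TTT. It was found in 63 of the 66 genes, all but H3C6, H4C13 and H2BC10. Variants outside this pattern would be missed. The 63 matches held 7 different sequences of 16 bases, the most frequent being shared by 38 genes. Those of the most abundant members, of H4C8 and of H1-3 and H2AC15, which had no reads, are given from 5′ to 3′ with the 16 bases of the stem-loop in capitals and 5 flanking bases on each side.
H1-2: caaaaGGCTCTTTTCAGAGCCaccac
H2AC6: ccaaaGGCTCTTTTCAGAGCCcccct
H2BC12: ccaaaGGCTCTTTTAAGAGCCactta
H2BC5: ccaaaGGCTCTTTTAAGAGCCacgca
H4C9: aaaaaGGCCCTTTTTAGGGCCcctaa
H4C8: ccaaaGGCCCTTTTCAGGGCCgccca
H1-3: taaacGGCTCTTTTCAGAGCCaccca
H2AC15: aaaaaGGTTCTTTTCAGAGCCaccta
These sites lie in the 3′ UTR of each gene, for example at chr6:26055739-26055764 on the minus strand for H1-2 and at chr6:27146361-27146386 on the minus strand for H2BC12. H1-2, H2AC6 and H1-3 share the frequent form, whereas H2BC12 and H2BC5 share another, found in 8 genes. H4C9 carries a form found in 4 genes and H4C8 one found in 10. All 34 tested members had a match, as did 16 of the 18 members at 0, so its presence did not separate genes with reads from genes without.

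Promoters from the RefSeq table (GRCh38.p14, 250 bases before to 50 after the start) were matched for 61 members. They were searched on both strands for the octamer bound by OCT1 (ATTTGCAT) and the AC box known from H1 genes (AAACACA). The CCAAT box, by its letters, and the TATA box, as TATAAA, were also searched on both strands and at any position. The octamer was found in 11 of 14 H2A and 14 of 18 H2B promoters, in 1 of 11 H3 promoters and in no H1 or H4 promoter, against 1.77% of all 35116 promoters. The promoters of H2A and H2B genes that stand head to head overlap, so 1 site can count for both genes. This holds for H2AC6 and H2BC4, for example, so these matches are not all separate sites. The H3 match is that of H3C4 and lies at chr6:26199244-26199543, an interval that the table also gives as the H2AC7 promoter, while the other entry of H3C4, at chr6:26197237-26197536, holds none. H2BC12, H2BC5 and H3C6 also have more than 1 entry, and a member was counted where any entry held the motif. The AC box was found in 5 of 5 H1 promoters, against 5.64% of all. CCAAT was found in 51 of 61 members, against 34.6% of all, and the TATA box in 41 of 61, against 11.5%. Of the H4 promoters 3 of 13 held CCAAT. The promoter of H2BC12, the most abundant member per length, and those of an H1 gene with many reads (H1-2) and one with none (H1-3) are given with the octamer (H2BC12) or the AC box (H1-2, H1-3) in capitals, on either strand.
H2BC12: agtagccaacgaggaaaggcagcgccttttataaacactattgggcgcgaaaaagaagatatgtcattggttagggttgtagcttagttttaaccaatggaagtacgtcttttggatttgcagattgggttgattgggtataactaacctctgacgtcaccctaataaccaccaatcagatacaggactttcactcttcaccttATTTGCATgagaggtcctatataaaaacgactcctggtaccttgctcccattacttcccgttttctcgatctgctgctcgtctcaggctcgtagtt
H1-2: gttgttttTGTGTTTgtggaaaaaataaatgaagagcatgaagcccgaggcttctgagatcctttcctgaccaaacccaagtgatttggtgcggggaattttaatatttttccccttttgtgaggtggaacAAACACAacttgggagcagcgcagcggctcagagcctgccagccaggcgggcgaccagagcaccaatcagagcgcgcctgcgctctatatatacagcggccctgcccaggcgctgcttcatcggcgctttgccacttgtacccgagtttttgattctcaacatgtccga
H1-3: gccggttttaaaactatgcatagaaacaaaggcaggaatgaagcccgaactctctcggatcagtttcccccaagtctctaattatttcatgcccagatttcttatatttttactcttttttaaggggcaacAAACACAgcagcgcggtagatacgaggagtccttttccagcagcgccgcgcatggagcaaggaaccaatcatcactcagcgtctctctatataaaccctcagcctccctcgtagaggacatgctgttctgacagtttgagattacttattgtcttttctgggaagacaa
They lie at chr6:27146809-27147108, chr6:26056421-26056720 and chr6:26234938-26235237, all on the minus strand. H1-2 and H1-3 both hold the AC box, and H1-2 holds a further match on the other strand. The octamer was found for 26 members, 13 of them tested, and not for 35, 17 of them tested.

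Library totals ranged from 64571681 to 103518036 counts, and the members took between 6312 and 10732 counts of a library. Levels are given as CPM, the usual count scaled to library size, with library totals corrected by edgeR's TMM factors. A count of 3, used as the floor of detection, equals 0.0292 to 0.0468 CPM, which covers counting error only. TRPV4 had 40, 28 and 54 counts in SC cells at 0.77 cP, 64, 45 and 24 in SC cells at 8 cP, and 7, 1 and 13 in shTRPV4 cells at 8 cP. It was lower in shTRPV4 cells than in SC cells at 8 cP by a log2 fold change of -2.51 (SE 0.49, edgeR adjusted p = 0.00219), and the count of 1 is under the floor. The line's own markers were abundant, with VIM at 754 CPM or more and CD44 at 754 CPM or more in every library, whereas ESR1 and PGR stayed at or below 0.0389 CPM. Of the 6 genes listed as low in a triple negative line, ESR1 and PGR among them, only 3 averaged below 1 CPM over the 9 libraries. The 6 summed to 120.6 to 129.3 CPM. SPARC, also listed for this line, reached at most 1.63 CPM.

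Reads were concentrated in few members, all on chromosome 6 (GRCh38). H2BC12 took 25.8% of all member counts, H1-2, a linker histone, 21.4%, H2AC6 14.3%, H2BC5 8.43% and H4C9 6.56%, 76.4% together. H2BC12 (ENSG00000197903) lies at chr6:27146361-27146855 on the minus strand and H1-2 (ENSG00000187837) at chr6:26055740-26056470 on the minus strand. H2AC6 (ENSG00000180573) lies at chr6:26124145-26139116, H2BC5 (ENSG00000158373) at chr6:26158122-26171349 and H4C9 (ENSG00000276180) at chr6:27139282-27139678, all on the plus strand. Per kb of annotated exon, H2BC12 had a mean of 49.6 CPM over the 9 libraries, H1-2 28.0, H4C9 15.8, H2BC5 9.39 and H2AC6 8.19. Their order within SC cells at 0.77 cP was the same, from 54.97 ± 0.18 CPM per kb for H2BC12 (SD, n = 3) through 31.3 ± 0.65 for H1-2 and 17.4 ± 1.2 for H4C9 to 12.3 ± 1.3 for H2BC5 and 9.89 ± 0.92 for H2AC6. In SC cells at 8 cP the last pair, at 8.998 ± 1.1 and 8.81 ± 0.15 CPM per kb, did not differ beyond their spread.

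The next members in each class were lower. H1-4 had a mean of 3.51 CPM per kb over the 9 libraries, H2AC11 4.22 and H4C3 2.12. H3 genes were low throughout, led by H3C3 at 2.35 and H3C2 at 2.02 CPM per kb. H2BC21 (0.495), H4C8 (0.544) and H2BC15 (0.228) have long annotated exons, so their levels per kb are low although each had 777 reads or more. Exon lengths are those of GENCODE release 44, which is not the annotation the authors counted on, and a wrong length would shift these levels.

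H2A and H2B genes often stand head to head on a shared promoter. Of 12 such pairs in the files with 500 bases or fewer between the starts, the H2B gene had the higher level per kb in 5 and the H2A gene in 6. In 3 of the 12 both genes had 0 or 1 read in total, and H2AC1 and H2BC1 had 1 and 4, so the order within those pairs rests on single reads or is absent. The gap was wide in some pairs. H2BC12 reached 49.6 CPM per kb and its partner H2AC12, 250 bases away, 0.757. H2AC6 reached 8.19 CPM per kb and its partner H2BC4, 218 bases away, 0.730. These had 11017 and 1696 reads over 1668 and 2881 annotated exon bases. Both lengths include long annotated forms, so this gap per kb depends on the annotation. H2BC15 had 777 reads over the 9 libraries, and H2AC15, 169 bases away, had none.

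The members without reads were not scattered. Along chromosome 6, 15 consecutive members from H4C4 to H2BC10 had 3 reads in all over the 9 libraries. They lie at chr6:26188710-26273412 (GRCh38), a stretch of 84703 bases. H4C5, H2AC8 and H2BC10 had 1 read each, and the remaining 12, among them the linker histone gene H1-3, had 0. Another 6 genes listed in the same stretch, most of them pseudogenes, had 0 reads as well. On one side the next member, H2BC6, had 119 reads, and beyond it H2BC5 had 6508. On the other side H4C8 had 959 reads, and the butyrophilin genes BTN3A2 and BTN2A1 farther on had 42790 and 68976. These genes at or near 0 lie between genes that were read in every library. Whether they were transcribed was not measured, since the libraries were selected for poly(A) RNA.

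A further 4 neighbours, H2AC16, H1-5, H3C11 and H4C13, had 0 reads in all 9 libraries (chr6:27865317-27873534, 8218 bases), as had H2AC15 nearby. H3C12, the next member after H4C13, had 237 reads. Reads that match several places equally could be lost in counting, so each 100-base window of the members' annotated transcripts was compared with the genome. None of the 5801 windows of the long stretch and none of the 1772 windows of the short stretch had an exact copy elsewhere. By contrast, all windows of H3C14, H3C15, H4C14 and H4C15 had a copy, and these genes had 2, 3, 3 and 6 reads. The part of copied sequence in those low counts was not tested. In the long stretch, H3C4 shares 486 of its 503 exon bases and H2AC7 435 of its 510 with another listed gene on the same strand. Reads over shared bases could also be lost in counting, and their part in these 0 counts was not tested.

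**Figure D1:**
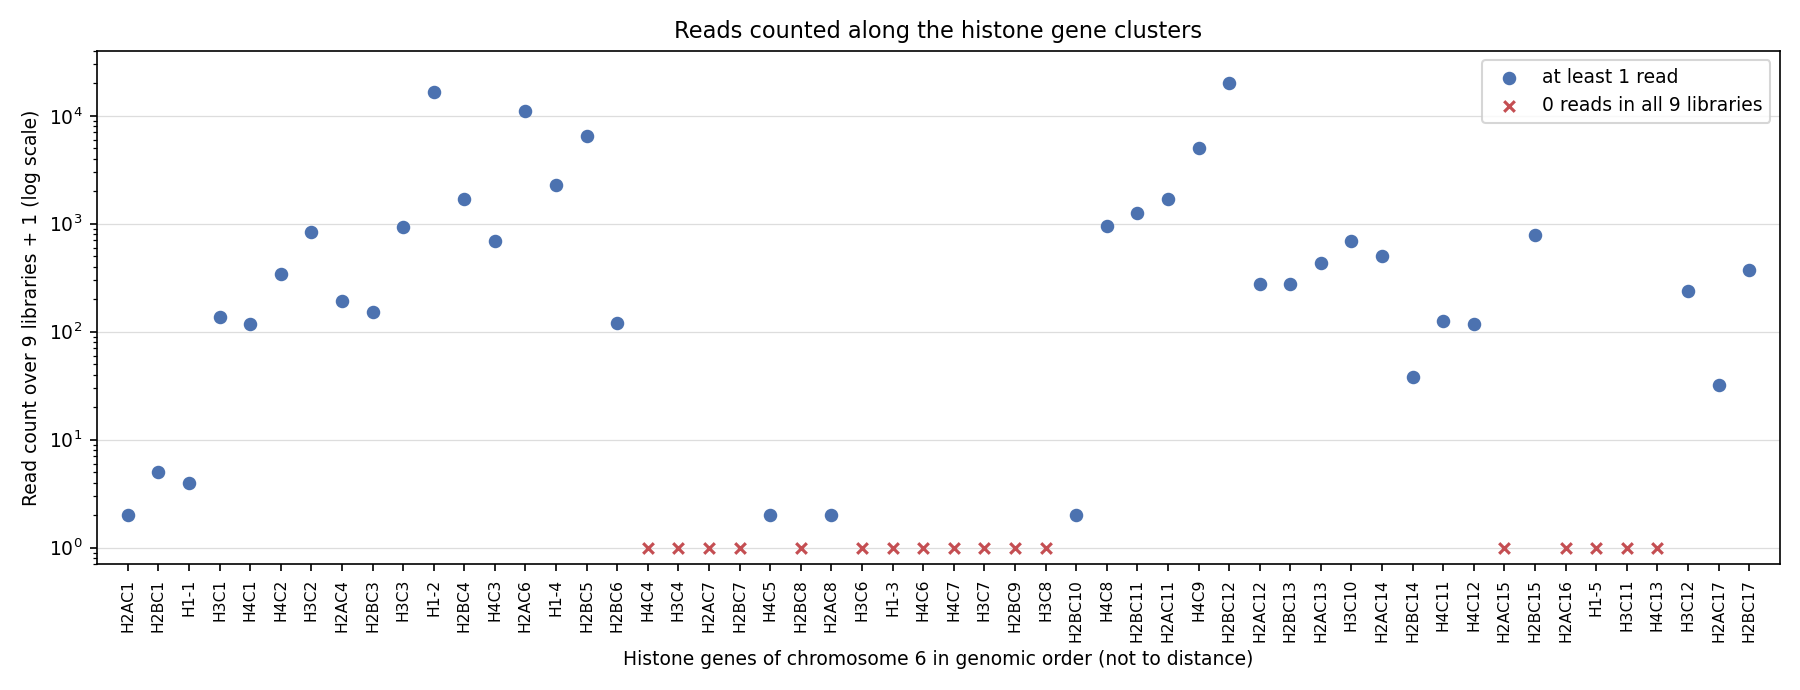
Read counts of the chromosome 6 members, summed over the 9 libraries and plotted as count + 1 on a log axis, with the genes in genomic order and not to distance. Crosses mark genes with 0 reads in all 9 libraries, and the 15 genes from H4C4 to H2BC10 hold 3 reads together while H2BC5 and H2BC12 on either side hold 6508 and 19920.

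Beside these, H1-1 (3 reads), H2AC1 (1), H2BC1 (4), H2AC25 (0) and H2BC26 (1) were also at or near 0, and H2AC21, H2BC14 and H2AC17 had 51, 37 and 31 reads. H2AC1 and H2BC1 are known as testis types. None of these 8 passed the filter. Among tested members, H4C12 (91.3% of windows with a copy), H4C11 (90.7%), H2AC14 (61.8%) and H2AC13 (58.8%) are nearly identical to other sequence, and their counts are uncertain. H3C12 and the untested H2AC17 share 346 exon bases on 1 strand. H2BC4, H2BC6 and H2BC18 overlap antisense genes by 430, 730 and 177 exon bases, which counting without strand would not separate.

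The first comparison asked what 6 days at raised viscosity did to SC cells, and the others asked how TRPV4 depletion bears on cells at 8 cP. Summed over the 66 members, SC cells at 0.77 cP had 109.7, 108.1 and 104.3 CPM, a mean of 107.4 ± 2.7 (SD, n = 3). SC cells at 8 cP had 96.97, 102.9 and 94.7 CPM, a mean of 98.2 ± 4.2. shTRPV4 cells at 8 cP had 75.3, 80.6 and 87.2 CPM, a mean of 81.0 ± 6.0. Each group lay wholly below the one before it. The sum was lower by 8.54% (log2 ratio of means -0.13) in SC cells at 8 cP than at 0.77 cP, by 17.5% in shTRPV4 than in SC cells at 8 cP, and by 24.5% in shTRPV4 cells at 8 cP than in SC cells at 0.77 cP.

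The 7 members that passed the test in any comparison held 78.7% of the member counts, and their sum went from 86.8 ± 3.1 to 77.9 ± 3.1 and 61.0 ± 4.1 CPM. The sum of the other 27 tested members was 20.4 ± 1.1, 20.2 ± 1.4 and 19.8 ± 1.9 CPM. Both sums are descriptions, since the test itself split the members into these groups. By class, the H2B sum was 45.7 ± 1.6, 41.7 ± 2.6 and 32.7 ± 2.1 CPM and the H2A sum 22.02 ± 1.4, 20.2 ± 0.54 and 15.4 ± 2.0. The H1 sum was 25.6 ± 0.30, 23.1 ± 0.99 and 21.03 ± 0.68 CPM and the H4 sum 10.5 ± 0.62, 9.70 ± 0.32 and 8.20 ± 0.88. In shTRPV4 cells all 4 class sums lay below those of both SC groups without overlap. The H3 sum was 3.58 ± 0.56, 3.56 ± 0.23 and 3.79 ± 0.56 CPM, and its groups overlapped in every comparison.

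**Figure D2:**
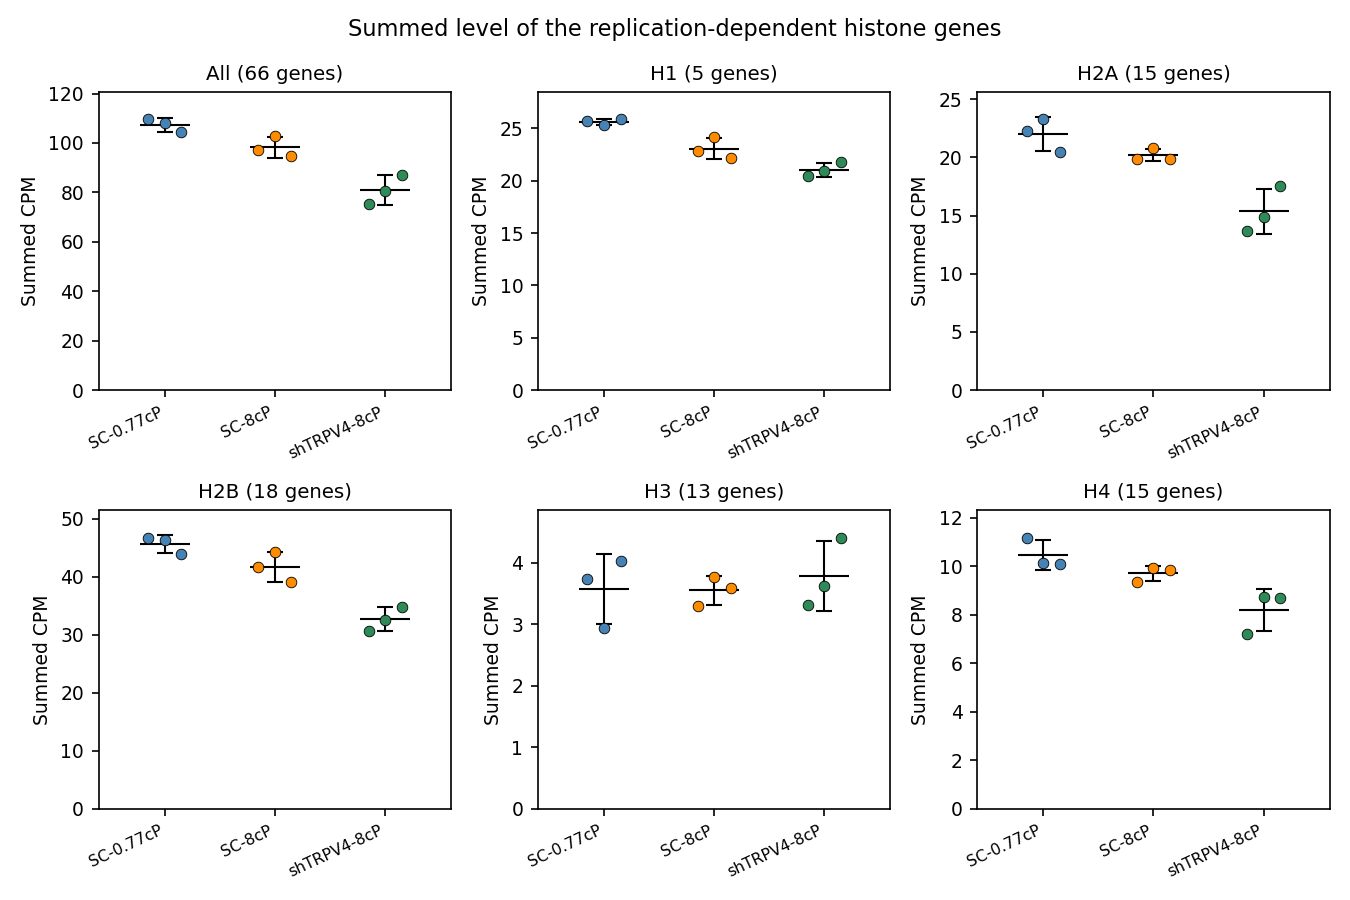
Summed CPM of all 66 members and of each histone class in the 3 groups, with a point for each of 3 samples and the mean as a line with SD whiskers. The sum over all members falls from a mean of 107.4 to 98.2 and 81.0 CPM without overlap, while the H3 groups, at means of 3.58, 3.56 and 3.79 CPM, overlap.

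Other measures moved across the same groups. The summed level of 6 leukocyte markers was 5.83 to 6.81 CPM in SC cells at 0.77 cP, 4.23 to 5.00 in SC cells at 8 cP and 3.22 to 4.41 in shTRPV4 cells. That of 5 endothelial markers was 8.18 to 10.4, 6.81 to 7.15 and 4.10 to 4.92 CPM. That of 6 fibroblast markers was 33.1 to 40.8, 21.4 to 25.1 and 18.9 to 22.5 CPM. Not every marker was lower: LUM, on the fibroblast list, was higher in shTRPV4 than in SC cells at 8 cP (log2 fold change 1.09, SE 0.19, edgeR adjusted p = 0.000917). VWF, on the endothelial list, had an estimate of 1.88 in that comparison and did not pass (SE 0.73, edgeR adjusted p = 0.0839). Most of these sums came from CD14, PECAM1, KDR and COL1A2, while CDH5, DCN, PDGFRA, TYROBP and CD3E stayed at or below 0.0664 CPM in every library. Their part in the histone result was not tested. RNAs without a poly(A) tail, which bear on how strict the poly(A) selection was, were low. Of 24 such RNAs 10 were at 0 and 22 averaged below 1 CPM over the 9 libraries. The sum of the 24 was 39.6 to 59.6, 33.6 to 42.2 and 41.7 to 66.8 CPM. Almost all of that was RN7SL1, the RNA of the signal recognition particle, at 30.9 to 63.6 CPM. The ranges of neighbouring groups overlapped, and the lowest sums were those of SC cells at 8 cP. The part of untailed RNA in the histone result was not tested.

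In SC cells, 8 cP against 0.77 cP gave 3 members that fell and none that rose among the 34 tested. The 3 were 8.82% of those tested, against 9.69% of all tested genes called lower and 9.57% called higher, so the share of members that fell was near that of all genes. At an unadjusted p below 0.05 there were 4 lower and 0 higher members, and DESeq2 called the same numbers as edgeR, 3 and 0. Groups did not overlap for 3 members, all lower, against 19.0% of all genes lower and 19.4% higher without overlap. The median log2 fold change was -0.07 for the members and -0.01 for all genes.

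H2BC5, a core histone H2B gene, had 11.5, 10.8 and 9.36 CPM at 0.77 cP and 7.36, 8.83 and 7.05 CPM at 8 cP. All samples at 8 cP were below all at 0.77 cP, and the log2 fold change was -0.44 (SE 0.11, edgeR adjusted p = 0.0115). H1-2 had 22.4, 23.4 and 22.9 CPM at 0.77 cP and 20.2, 20.96 and 19.6 at 8 cP. The samples did not overlap, but the change was small, -0.18 on the log2 scale (SE 0.06, edgeR adjusted p = 0.036). H2BC15, another H2B gene (ENSG00000233822, chr6:27838545-27855709, plus strand), had 1.27, 1.51 and 1.15 CPM at 0.77 cP and 0.859, 0.911 and 0.925 at 8 cP, again without overlap (log2 fold change -0.53, SE 0.18, edgeR adjusted p = 0.0469).

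These calls depended on the libraries used, since H1-2 and H2BC15 each remained past the threshold in 8 of 16 alternative fits and H2BC5 in 14 of 16. These 16 do not include the alternative that asks for a log2 fold change of at least 1, under which no member was called in any comparison. Leaving out any single SC sample lost the H1-2 call. The H2BC15 call was lost without any single SC sample other than replicate 3 at 0.77 cP. Without SC replicate 1 at 0.77 cP or without SC replicate 3 at 8 cP, no member was called. H2BC12, the most abundant member, did not pass, with 27.3, 27.1 and 27.3 CPM at 0.77 cP and 27.05, 27.6 and 24.8 at 8 cP (log2 fold change -0.04, SE 0.06, edgeR adjusted p = 0.674). Among the 31 members not called, H2BC3 had the most negative estimate, -1.02 (SE 0.46, edgeR adjusted p = 0.133), at 151 reads over all libraries. Its name was chosen after its value was seen.

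At 8 cP, shTRPV4 against SC cells gave 4 members that fell and none that rose. It uses the same SC samples at 8 cP as the first comparison. They were 11.8% of the members tested, against 11.0% of all genes called lower and 9.02% called higher, again near the share of all genes. At an unadjusted p below 0.05 there were 7 lower and 1 higher members, and DESeq2 called 4 and 0. Groups did not overlap for 8 members, all lower, against 18.8% of all genes lower and 17.6% higher. Median log2 fold changes were -0.08 for the members and 0.00 for all genes.

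H2BC12 had 19.2, 19.6 and 21.3 CPM in shTRPV4 cells, below every SC sample at 8 cP (24.8 to 27.6), with a log2 fold change of -0.40 (SE 0.06, edgeR adjusted p = 0.000224). H2AC6, a core histone H2A gene, had 14.6, 15.0 and 14.6 CPM in SC cells at 8 cP and 8.47, 9.76 and 11.2 in shTRPV4 cells. It showed the larger fall, by 33.3%, without overlap (log2 fold change -0.58, SE 0.09, edgeR adjusted p = 0.000406). Both calls remained in the 16 alternative fits, and were lost where a log2 fold change of at least 1 was asked for.

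H2BC5 fell further, from 7.75 ± 0.95 CPM in SC cells at 8 cP to 5.18, 5.92 and 6.72 CPM in shTRPV4 cells (log2 fold change -0.38, SE 0.11, edgeR adjusted p = 0.0251). H4C9, an H4 gene, had 6.64, 6.55 and 6.60 CPM in SC cells at 8 cP and 4.72, 5.81 and 5.52 in shTRPV4 cells (log2 fold change -0.30, SE 0.09, edgeR adjusted p = 0.0286). Neither pair of groups overlapped. H2BC5 remained past the threshold in 13 of 16 alternative fits and H4C9 in 12 of 16. The H4C9 call was lost without any single SC sample at 8 cP. Without SC replicate 2 at 8 cP or without shTRPV4 replicate 1, only H2AC6 and H2BC12 were called lower, and without shTRPV4 replicate 1 H2AC20 was called higher.

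H1-2 in shTRPV4 cells, at 17.6, 18.3 and 18.9 CPM, was also below every SC sample at 8 cP but did not pass (log2 fold change -0.15, SE 0.06, edgeR adjusted p = 0.0742). H2AC11, next to H2BC11 on its own pair, had 2.06, 2.40 and 2.20 CPM in SC cells at 8 cP and 2.08, 1.72 and 2.17 in shTRPV4 cells, with overlap. H1-4 had 2.66, 3.18 and 2.61 against 2.79, 2.63 and 2.90 CPM, and H3C3 0.900, 1.12 and 1.26 against 0.982, 1.34 and 1.30. The groups overlapped for each of these genes. H2AC11 had a log2 fold change of -0.15 (SE 0.14), H1-4 of -0.02 (SE 0.16) and H3C3 of 0.15 (SE 0.20), none past the test.

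**Figure D3:**
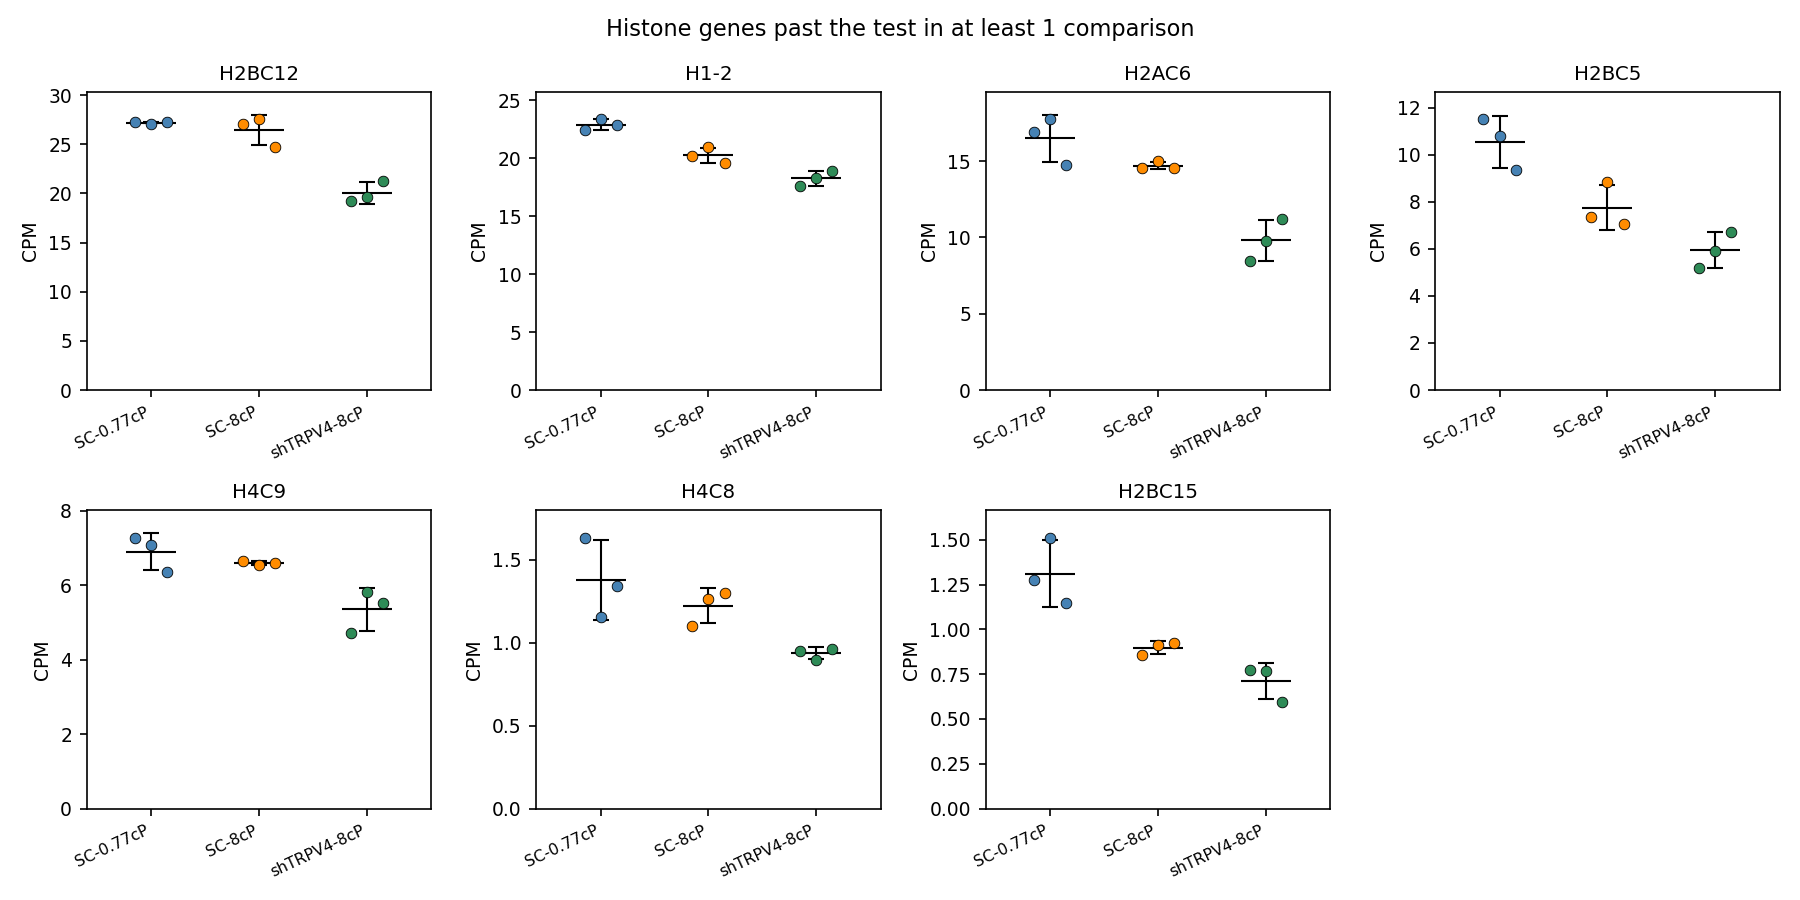
CPM of the 7 members past the test in at least 1 comparison, with a point for each of 3 samples in each group and the mean as a line with SD whiskers, every axis starting at 0. H2AC6 and H2BC12 drop mainly between the groups at 8 cP, to means of 9.81 and 20.04 CPM, while H2BC5 steps from 10.6 to 7.75 and 5.94 CPM.

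The last comparison, of shTRPV4 cells at 8 cP with SC cells at 0.77 cP, differs in both viscosity and hairpin. This comparison shares its samples with the others, so it is not separate evidence. It gave 7 members that fell and none that rose. They made up 20.6% of the members tested, against 22.0% of all genes called lower and 20.4% called higher. At an unadjusted p below 0.05 there were 8 lower and 0 higher members, and DESeq2 called 7 and 0. Groups did not overlap for 9 members, all lower, against 26.1% of all genes lower and 24.5% higher.

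The largest falls among the 7 were those of H2BC15 (log2 fold change -0.87, SE 0.18, edgeR adjusted p = 0.0013) and H2BC5 (-0.83, SE 0.11, edgeR adjusted p = 3.01e-05). H2BC15 had 0.775, 0.767 and 0.597 CPM in shTRPV4 cells, 45.3% below SC cells at 0.77 cP in the fit. H2AC6 followed, with 16.9, 17.8 and 14.8 CPM in SC cells at 0.77 cP against 8.47 to 11.2 (log2 fold change -0.75, SE 0.09, edgeR adjusted p = 1.42e-05). H4C8 (ENSG00000158406, chr6:26277609-26285638, minus strand) passed in this comparison, at 1.63, 1.15 and 1.34 CPM against 0.950, 0.894 and 0.962 (log2 fold change -0.56, SE 0.17, edgeR adjusted p = 0.0142). H2BC12 (-0.44), H4C9 (-0.37) and H1-2 (-0.33) fell by less. Of the 7 calls 6 remained in the 16 alternative fits and H4C8 in 15, and all 7 were lost where a log2 fold change of at least 1 was asked for.

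The remaining 27 tested members passed in no comparison. Their estimates in this comparison ranged up to 0.83 on the log2 scale for H4C1, which had an SE of 0.69 and 116 reads over 9 libraries. H3C2 had 1.22, 0.935 and 1.20 CPM in SC cells at 0.77 cP, 0.940, 1.31 and 0.782 in SC cells at 8 cP and 0.917, 0.830 and 1.16 in shTRPV4 cells, and H4C3 had 1.05, 0.811 and 1.12, then 0.677, 0.776 and 0.925, then 0.557, 0.882 and 0.940. All 3 groups overlapped for H3C2.

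**Figure D4:**
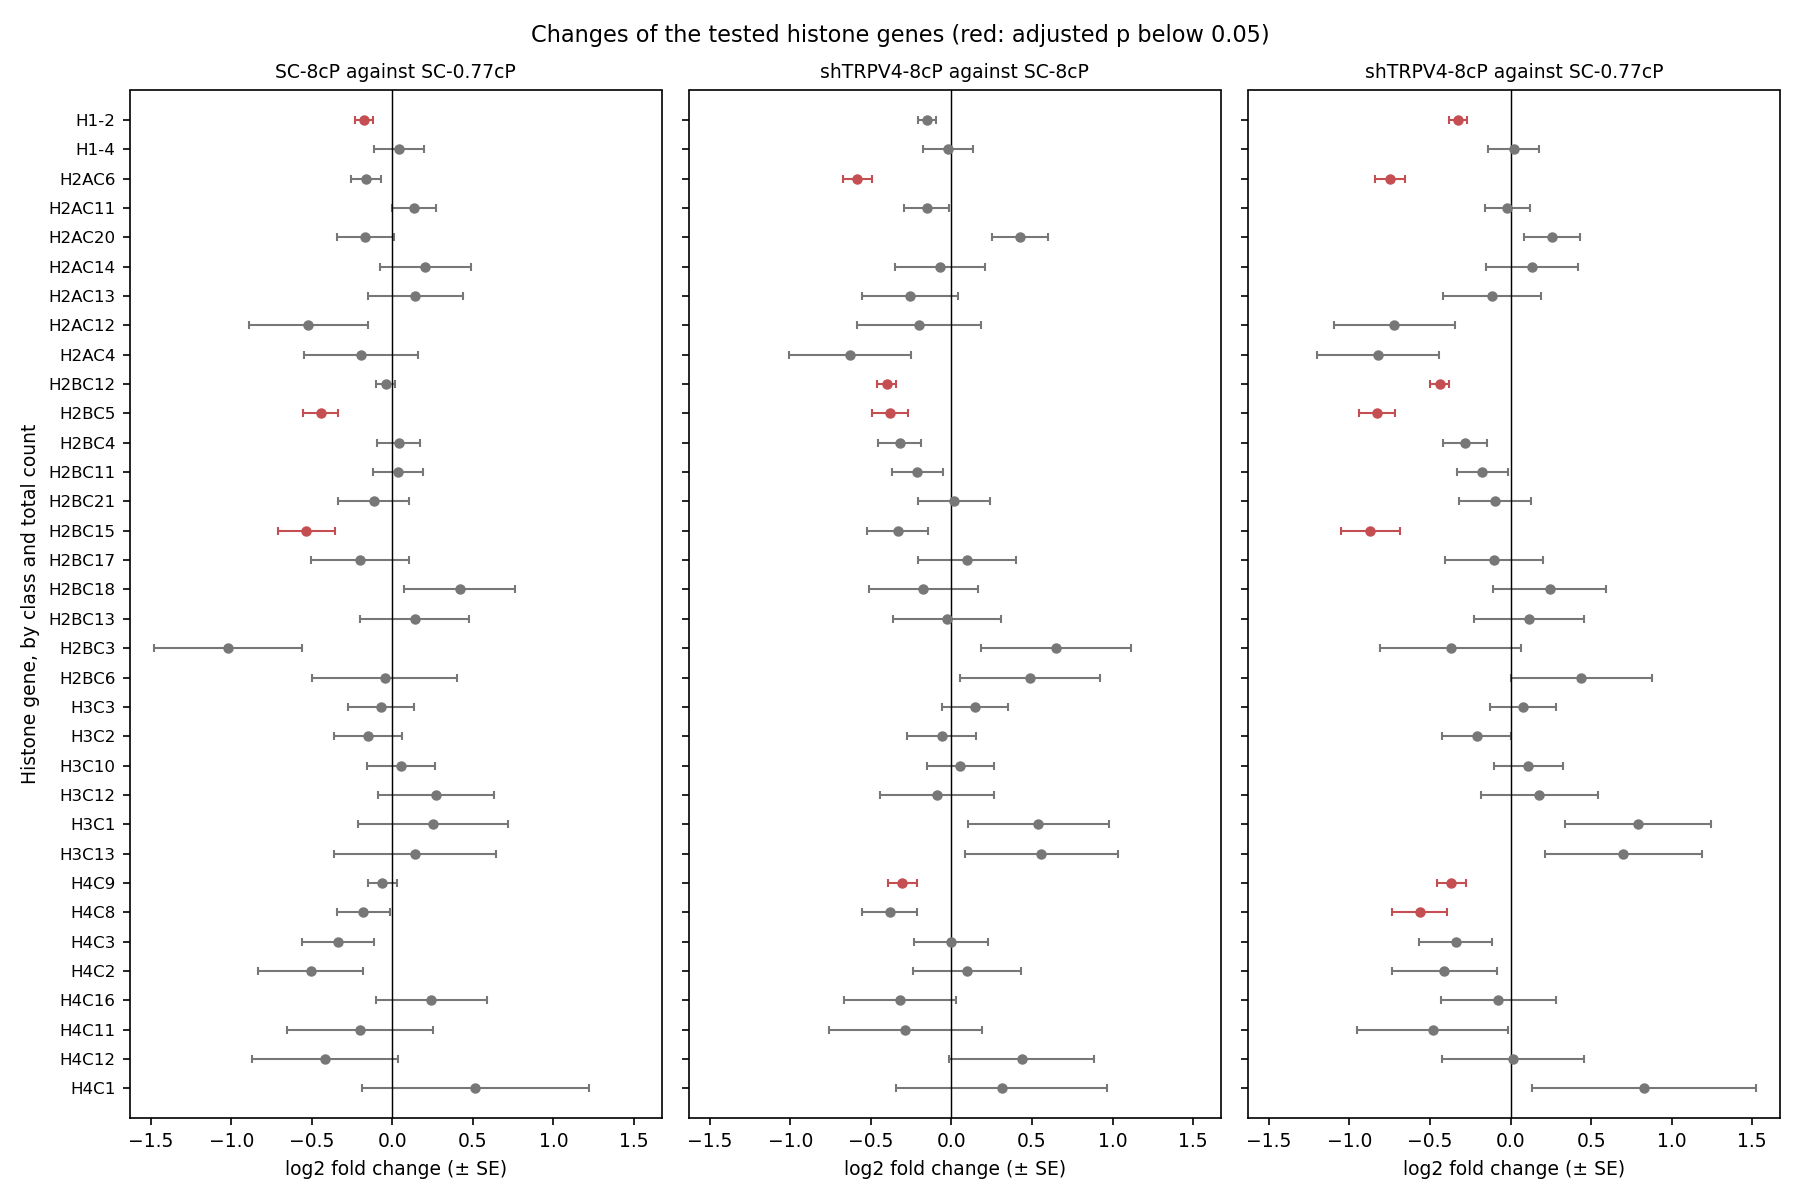
log2 fold change ± SE of the 34 tested members in the 3 comparisons, ordered by class and by total count, with members at an adjusted p below 0.05 in red. Red points all lie below 0, with 3, 4 and 7 of them, and whiskers widen towards members with few reads such as H4C1 (SE 0.69 on the right).

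The members' annotation differs in 1 respect that bears on poly(A) libraries. For 17 members GENCODE places the gene end over 200 bases past the stop codon, as for a tailed long form, and for 49 it does not. The 17 include H3C6, for which no match to the stem-loop pattern was found. Of the 17, 11 were tested, H2AC6, H2BC5, H2BC15 and H4C8 among them, and of the 49, 23 were tested, H2BC12, H1-2 and H4C9 among them. The summed level of the 17 was 36.3 ± 2.9, 31.3 ± 1.4 and 23.5 ± 2.4 CPM in the order of the groups, and that of the 49 was 71.1 ± 0.73, 66.9 ± 3.0 and 57.6 ± 3.6. Both sums lay lower from group to group without overlap. The difference between long and short annotated members was not tested.

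Genes of the machinery that makes histone mRNA were more often higher than lower in SC cells at 8 cP. Of 24 genes of histone gene transcription and 3′ end processing, 13 were higher and 1 lower at 8 cP than at 0.77 cP. All tested genes gave 9.57% and 9.69%, and the median log2 fold change of the 24 was 0.16. At an unadjusted p below 0.05 edgeR gave 15 higher and 1 lower, and DESeq2 called 15 and 1. NPAT, the coactivator of histone genes, rose from 43.6 to 49.7 CPM at 0.77 cP to 55.1 to 66.7 CPM at 8 cP (log2 fold change 0.39, SE 0.07, edgeR adjusted p = 0.00182). CSTF2T, a cleavage factor, rose by 0.23 and NCBP1, a subunit of the cap-binding complex, by 0.39. SLBP rose by 0.17 (SE 0.05), CASP8AP2 by 0.17 and LSM10 by 0.18, and LSM11 rose by 0.33 (SE 0.07, edgeR adjusted p = 0.00754). The calls of SLBP and LSM10 were each lost in 4 of 16 alternative fits and that of CASP8AP2 in 5.

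Between shTRPV4 and SC cells at 8 cP only 2 of those 24 passed, beside 9.02% of all tested genes called higher and 11.0% lower. NCBP2 was higher (log2 fold change 0.18, SE 0.04, edgeR adjusted p = 0.0102) and LSM11 lower (-0.22, SE 0.07, edgeR adjusted p = 0.045). The LSM11 call was lost in 6 of 16 alternative fits. At an unadjusted p below 0.05 edgeR gave 4 higher and 1 lower, and DESeq2 called 2 and 1. SLBP at 159 to 168 against 161 to 170 CPM (log2 fold change 0.01), NPAT (-0.05), CASP8AP2 (0.04) and LSM10 (0.09) did not pass. Against SC cells at 0.77 cP, 15 were higher and 1 lower in shTRPV4 cells at 8 cP, beside 20.4% and 22.0% of all tested genes. NCBP1 (0.57), NCBP2 (0.30) and CSTF2 (0.38) had the smallest p-values. At an unadjusted p below 0.05 edgeR gave 15 and 1, and DESeq2 called 15 and 1.

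S phase is when replication-dependent histone genes are known to be transcribed. Of 42 S phase genes, 31 were higher, 0 lower and 11 not called when SC cells at 8 cP were compared with those at 0.77 cP, beside 9.57% of all tested genes called higher, with a median log2 fold change of 0.23, against 0 higher and 3 lower of the 34 histone genes tested. At an unadjusted p below 0.05 edgeR gave 40 higher and 0 lower S phase genes, and DESeq2 called 36 and 0. CCNA2, a cyclin, had 190 to 211 CPM at 0.77 cP and 242 to 260 at 8 cP (log2 fold change 0.31, SE 0.05, edgeR adjusted p = 0.000759). MCM6, a subunit of the replicative helicase, rose by 0.31 and CCNE1 by 0.45. No test compared the lists with each other, and SLBP stands on both the S phase and the processing list. Of 24 mitosis genes 14 were higher and 0 lower, beside 9.57% and 9.69% of all tested genes. TOP2A (0.33), KIF11 (0.25) and KIF23 (0.30) led them. An unadjusted p below 0.05 in edgeR gave 17 and 0 and DESeq2 called 15 and 0.

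In shTRPV4 against SC cells at 8 cP, 7 S phase genes were higher and 0 lower, led by CDC25A (log2 fold change 0.38, SE 0.08, edgeR adjusted p = 0.0023), GINS1 (0.29) and CCNE1 (0.36). Of the mitosis genes 0 were higher and 2 lower, CDC25C (-0.35) and CENPE (-0.21). All tested genes gave 9.02% higher and 11.0% lower. At an unadjusted p below 0.05 edgeR gave 9 higher and 4 lower S phase genes and 1 higher and 4 lower mitosis genes, and DESeq2 called 7 and 1, and 0 and 2. Against SC cells at 0.77 cP, 37 S phase genes were higher and 0 lower (38 and 0 at an unadjusted p below 0.05 in edgeR, 37 and 0 in DESeq2). CCNE1 (0.81), RFC3 (0.53) and RFC4 (0.50) led them. In the same comparison 13 mitosis genes were higher and 2 lower, with KIF23 (0.42), CDC25C (-0.36) and BUB1B (0.32) at the smallest p-values. All tested genes gave 20.4% higher and 22.0% lower. The summed S phase level was 4320 to 4875 CPM in SC cells at 0.77 cP, 5221 to 5611 in SC cells at 8 cP and 5303 to 5634 in shTRPV4 cells. The histone sum lay lower in groups whose S phase sum lay higher or overlapped. A link between these sums was not tested.

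**Figure D5:**
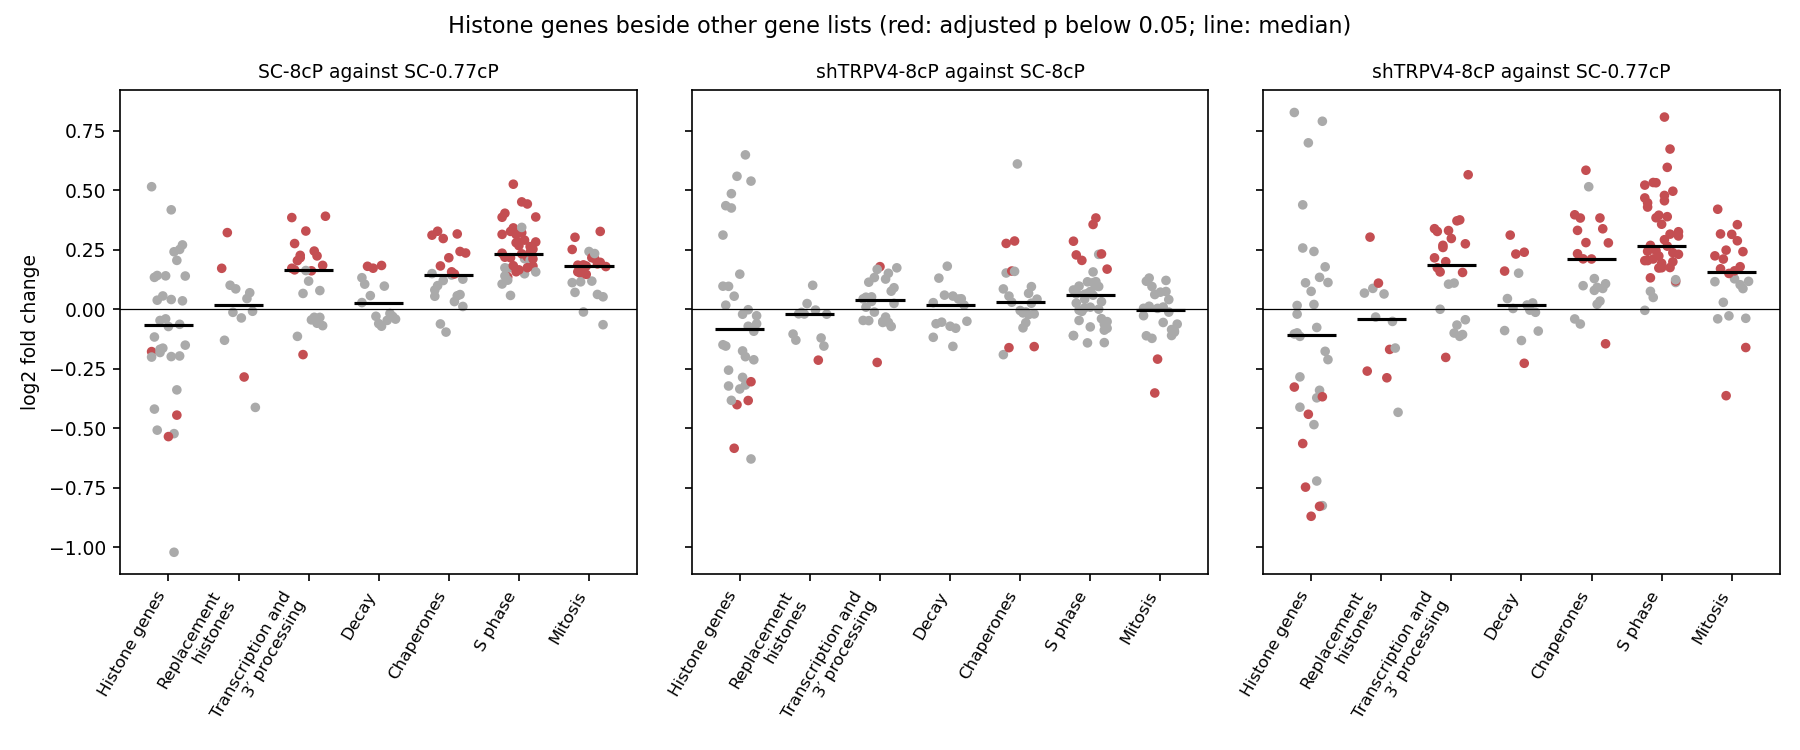
log2 fold changes of the tested histone genes and of genes on 6 other lists in the 3 comparisons, 1 point per gene, red at an adjusted p below 0.05 and a line at the median. In SC cells at 8 cP against 0.77 cP the S phase median is 0.23 and the histone median -0.07.

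Replacement histones, which are made outside S phase as well, were mostly below the threshold. Of 12, 2 were higher and 1 lower at 8 cP than at 0.77 cP in SC cells, beside 9.57% and 9.69% of all tested genes. H2AX, the histone phosphorylated at DNA breaks, rose by 0.32 (SE 0.05, edgeR adjusted p = 0.00109) and CENPA, the centromeric H3, by 0.17, whereas H2AJ was lower (-0.28, SE 0.07, edgeR adjusted p = 0.0121). Between shTRPV4 and SC cells at 8 cP, H2AZ1 was lower (-0.21, SE 0.05, edgeR adjusted p = 0.00843) and no other passed. edgeR gave 0 higher and 2 lower at an unadjusted p below 0.05, and DESeq2 called 0 and 1. Against SC cells at 0.77 cP, 2 were higher and 3 lower in shTRPV4 cells, beside 20.4% and 22.0% of all tested genes. H2AX (0.30), H2AJ (-0.29) and the linker histone H1-10 (-0.26) had the smallest p-values. Their summed level, 2487 to 2497, 2537 to 2602 and 2438 to 2589 CPM in the order of the groups, exceeded that of the 66 members in every library.

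Histone chaperones carry histones to DNA. Of 23, 10 were higher and 0 lower at 8 cP than at 0.77 cP in SC cells, beside 9.57% and 9.69% of all tested genes. They were led by CHAF1A, a subunit of the chromatin assembly factor CAF-1 (0.33), TONSL (0.30) and SUPT16H, a subunit of FACT (0.24). edgeR gave 14 higher and 0 lower at an unadjusted p below 0.05, and DESeq2 called 10 and 0. In shTRPV4 against SC cells at 8 cP, 3 were higher and 2 lower, beside 9.02% and 11.0% of all tested genes. NAP1L4 (0.28), TONSL (0.29) and HJURP (-0.16) had the smallest p-values. Against SC cells at 0.77 cP, 11 were higher and 1 lower, beside 20.4% and 22.0% of all tested genes. TONSL (0.58), NAP1L4 (0.33) and SUPT16H (0.34) had the smallest p-values.

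Of 15 genes of histone mRNA decay, 3 were higher and 0 lower at 8 cP than at 0.77 cP in SC cells. All tested genes gave 9.57% and 9.69%. The 3 were ERI1, the exonuclease that trims the stem-loop end (0.18), LSM2 (0.18) and LSM6 (0.17). The LSM6 call was lost in 7 of 16 alternative fits, that of ERI1 in 3 and that of LSM2 in 2. edgeR gave 5 higher and 0 lower at an unadjusted p below 0.05, and DESeq2 called 3 and 0. None passed in shTRPV4 against SC cells at 8 cP, where edgeR gave 2 higher and 1 lower at an unadjusted p below 0.05 and DESeq2 called 2 and 0. Against SC cells at 0.77 cP, 4 were higher and 1 lower, beside 20.4% and 22.0% of all tested genes. Of 16 genes of nuclear poly(A) tail addition and shortening, 2 were higher (PAPOLA, the poly(A) polymerase, 0.17, and CNOT7, 0.14) and 1 lower (PAN3, -0.16) in SC cells at 8 cP than at 0.77 cP. In shTRPV4 against SC cells at 8 cP, PARN, a poly(A) exonuclease, was higher (0.25, SE 0.06, edgeR adjusted p = 0.0133) and TENT4B, a non-canonical poly(A) polymerase, lower (-0.26, SE 0.07, edgeR adjusted p = 0.0173). Against SC cells at 0.77 cP, 6 were higher and 3 lower, beside 20.4% and 22.0% of all tested genes. PARN (0.38), CNOT8 (-0.32) and CNOT1 (0.28) had the smallest p-values. Of 6 tested RNAs without a tail, SNORD3A (-0.58) and RNU4ATAC (-1.75) were lower in SC cells at 8 cP than at 0.77 cP. DESeq2 called 1 higher and 1 lower there. The RNU4ATAC call was lost in 9 of 15 alternative fits and that of SNORD3A in 5 of 16. RN7SL1 was higher in shTRPV4 than in SC cells at 8 cP (0.49), a call that DESeq2 did not make and that was lost in 8 of 16.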

How the data were processed

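RNA of 9 samples in 3 groups of 3 was measured by poly(A)-selected, stranded, paired-end sequencing. The authors aligned reads to GRCh38.p13 with HISAT2 2.2.1 and deposited raw counts of read pairs over exons of Ensembl genes from HTSeq 0.13.5. The strand option and the handling of reads with several matches are not given in the sources used here. Symbols were matched for 60463 of 60664 genes, and H2AC18 and H2AC19, also named by the rule, were not matched and are not analysed here. Genes kept by filterByExpr (18264) were fitted in edgeR 4.0.16 (R 4.3.3) with TMM scaling and 1 coefficient per group over all 9 samples. The quasi-likelihood test was used with Benjamini-Hochberg adjustment over all tested genes and a threshold of 0.05, and the script was tested on simulated data. Common biological variation was 0.0633, and an exact permutation test of 3 against 3 samples cannot go below 0.1, so sums carry no p-value.

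The members and gene lists were chosen with earlier results of these data known. Named genes were the 2 members of each class with the highest level per kb, called members, the 3 list genes with the smallest p-values among those called, TRPV4, SLBP, NPAT, LSM10, LSM11 and CASP8AP2. Lists covered replacement histones, transcription and 3′ processing, decay, poly(A) tails, chaperones, S phase, mitosis, untailed RNAs, markers of the line and of other cells. Exon lengths and windows came from GENCODE release 44, promoters from RefSeq (GRCh38.p14). Alternatives were DESeq2 1.42.0, other scalings and filters, the samples of 1 comparison, a replicate block, a fold threshold, leaving out members with copies and leaving out each sample.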

Additional observations from a re-analysis of the deposited data

How the results depend on the processing

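Among the members, 3, 4 and 7 were called lower in SC cells at 8 cP against 0.77 cP, in shTRPV4 against SC cells at 8 cP, and in shTRPV4 cells at 8 cP relative to SC cells at 0.77 cP. DESeq2, RLE and upper quartile scaling, a minimum of 10 counts and fits to 6 samples called the same members. Without a filter on low counts the first comparison called 1 (H2BC5), and with a log2 fold change of at least 1 all 3 comparisons called 0. Leaving out each sample gave 0 to 3, 2 to 4 and 6 to 8 members lower, and 0 to 0, 0 to 1 and 0 to 0 higher. The summed log2 ratio of the members ranged from -0.16 to -0.10, -0.33 to -0.23 and -0.46 to -0.36. TRPV4 ranged from -0.33 to 0.27 in the first comparison, which reversed its sign, and from -3.27 to -2.06 and -3.27 to -2.06 in the others.

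Replicate numbers did not pair the samples: correlations of deviations were -0.055 to 0.090 for the same number and -0.11 to 0.11 for different ones. With the replicate block 2, 4 and 7 members were called lower and 0 higher, and H2BC15 was lost in the first comparison. Calls of list genes could be lost as well. Those of H2AJ and CENPA in the first comparison were each lost in 3 of 16 alternative fits.

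Estimates that changed sign belonged to genes not called. For shTRPV4 against SC cells at 8 cP, H4C3 was 0.0012 in DESeq2 and 0.0010 with RLE. When samples were left out H4C3 ranged from -0.15 to 0.20, H1-4 from -0.071 to 0.072, H3C2 from -0.21 to 0.17, NPAT from -0.11 to 0.030, SLBP from -0.016 to 0.027 and CASP8AP2 from -0.0015 to 0.091. In SC cells H1-4 ranged from -0.13 to 0.19, H3C3 from -0.22 to 0.10, H3C2 from -0.37 to 0.0095 and H2BC12 from -0.060 to 0.013. In the last comparison H1-4 ranged from -0.15 to 0.17, H3C3 from -0.073 to 0.25 and H2AC11 from -0.11 to 0.098. The cause was not tested. Depth limits members with few reads: H4C1, with 116, had an SE of 0.70 in the first comparison.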
